A study of Mus musculus with 16 samples.

Results

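Sox9, Sox5 and Sox6, the SOX trio of cartilage transcription factors, were chosen by gene symbol, and the 3 genes were found among the 55414 Ensembl gene identifiers in the count tables. They were measured by RNA-Seq in chondrocyte-enriched cells from the epiphyses of newborn mice, sexes pooled, on a C57BL/6 background. The cells were from wild-type littermates (control) or from mice heterozygous for Notch2tm1.1Ecan, labelled Notch2 mutant. In this knock-in a premature stop codon removes the PEST domain of NOTCH2 and stabilises its intracellular domain. The allele is global and is not driven by Cre, so that every cell type of the culture carries it. Confluent cultures of each genotype received either vehicle, PBS, or TNFα (50 ng/ml) for 6 h, which gave 4 groups of 4 libraries each. The labels mention serum removal for the TNFα groups alone, whereas the study describes exposure without serum for both treatments, and if the labels are right the effects of TNFα and of serum removal cannot be told apart.

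SOX9 is an HMG-box transcription factor of the SoxE group that is required for the formation of cartilage and that binds enhancers of cartilage matrix genes. SOX5 and SOX6 are SoxD proteins that lack a known activation domain, pair through a coiled coil and bind beside SOX9 at enhancers of genes such as Col2a1 and Acan. Loss of SOX9 in mice prevents the formation of cartilage, and the combined loss of SOX5 and SOX6 leaves chondrocytes poorly differentiated.

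Levels are given as CPM, which scale the counts of a gene to the size of its library, with the size adjusted by edgeR's TMM factors. A gene was called where its Benjamini-Hochberg adjusted p from the quasi-likelihood test of edgeR was below 0.05, with no cutoff on fold change. Counts assigned to genes ranged from 3439726, in Notch2tm1.1Ecan TNFα replicate 4, to 44237300 per library, with a median of 17062419. Replicate 4 of control vehicle and replicate 4 of control TNFα stood apart from the rest of their groups. On the leading principal component, which held 78.6% of the variance, they lay at 14.8 and -40.9, between the other vehicle libraries and the other TNFα libraries. On the next component, which held 6.86%, Notch2tm1.1Ecan TNFα replicate 4 lay at -33.4, against -12.2 to -11.3 in the rest of its group. Icam1, an adhesion molecule induced by TNFα, was 439 CPM in control vehicle replicate 4, against 26.9 to 40.4 CPM in the other 7 vehicle libraries and 1812 to 2828 CPM with TNFα. Heyl, a canonical target of Notch, was 8.21-fold higher in Notch2tm1.1Ecan than in control cells with vehicle and 5.50-fold higher with TNFα. Its counts were low, at 2 to 5 in control vehicle and 1 to 10 in control TNFα libraries. In Notch2tm1.1Ecan libraries they were 26 to 99 with vehicle and 7 to 30 with TNFα. Chondrocyte markers summed to 15151 to 44797 CPM over the 16 libraries, against 25.8 to 89.6 CPM for macrophage markers, with erythroid markers at most 0.47 CPM. Fibroblast and perichondrium markers summed to 30878 to 42469 CPM. They were above the chondrocyte markers in every Notch2tm1.1Ecan library and below them in every control vehicle library. In control TNFα libraries the ranges overlapped, with medians of 32356 CPM for fibroblast and 29890 CPM for chondrocyte markers. Of the fibroblast sum, Col1a1 averaged 13003 to 17348 CPM and Col1a2 11346 to 12694 CPM per group. Of the chondrocyte sum, Col2a1 alone averaged 14714 to 37603 CPM per group.

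Sox9 (ENSMUSG00000000567) lies on the forward strand of mouse chromosome 11 at chr11:112673009-112678586 (GRCm39, GENCODE M39) and is annotated with 4176 exonic bases. Sox5 (ENSMUSG00000041540) lies on the reverse strand at chr6:143774151-144727703 and Sox6 (ENSMUSG00000051910) on the reverse strand at chr7:115070106-115638860. The canonical transcripts of Sox5 and Sox6 have 8006 and 8554 bases, and their merged exons cover 15527 and 16215 bases. All 3 genes passed the minimum of 10 counts in each comparison, and the lowest count of any of them was 56, for Sox5 in the shallowest library.

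The annotation places other genes over each of the 3. BC006965, a long noncoding RNA on the opposite strand, shares exons with Sox9 and had at most 16 counts in a library. The antisense transcripts Sox5os1 to Sox5os5, together with Sox5it and Gm44068, had at most 2 counts over Sox5. Over Sox6, Sox6os had at most 7 counts and Gm45025 had 0. The protein-coding gene 1110004F10Rik overlaps the start of Sox6 on the opposite strand at 1 exon and had 166 to 3413 counts. TNFα lowered 1110004F10Rik by 0.27 and 0.45 on the log2 scale in control and Notch2tm1.1Ecan cells (adjusted p = 0.000162 and 2.10e-05). Its difference between genotypes was 0.03 with vehicle (adjusted p = 0.815) and -0.14 with TNFα (adjusted p = 0.278). The strand setting of the counting is not given in the sources used here, and the part of reads from 1110004F10Rik in the Sox6 values was not tested.

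The 3 genes changed in the same direction, though by different amounts, in the pairwise comparisons below, and promoter windows of RefSeq (GRCm38.p6) are shown for those with an entry, Sox5 with 1 window and Sox6 with 6. Only the 250 bases upstream of each start were searched, on both strands. Each window was matched to a single place on its own chromosome in GRCm39, and other chromosomes were not searched. The letters searched were the SOX heptamers AACAATG and AACAAAG, which share their opening letters, the RBPJ core TGGGAA, the HES N-box CACNAG and the NF-κB consensus. The Sox5 window (chr6:143892833-143893082, reverse strand), at an annotated start within the gene, held none of them and is printed in lower case throughout.
Sox5 promoter window: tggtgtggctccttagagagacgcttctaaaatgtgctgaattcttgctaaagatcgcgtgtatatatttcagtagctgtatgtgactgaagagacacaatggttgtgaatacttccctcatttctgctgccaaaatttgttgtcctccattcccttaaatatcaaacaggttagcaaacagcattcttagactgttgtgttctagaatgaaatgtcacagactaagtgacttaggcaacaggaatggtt
Of the 6 Sox6 windows, 4 held AACAATG or AACAAAG, and these are printed with 30 bases each and the heptamer in capitals. Other forms of the SOX heptamer were not searched.
Sox6 window 1, chr7:115638075-115638104: tttttttcaggAACAAAGggaatgtggaaa
Sox6 window 3, chr7:115594445-115594474, match on the other strand: accaagccggcCTTTGTTagtcattgtgat
Sox6 window 4, chr7:115445402-115445431: tgaatgtgcaaAACAAAGataaaagctatg
Sox6 window 5, chr7:115424163-115424192: ttctttctttcAACAATGcttgattgtttt
These matches lie 114, 142, 45 and 236 bases upstream of their starts. Sox6 windows 1, 2, 4 and 5 overlap annotated exons of Sox6, and window 3 overlaps an exon of Gm45025. Either heptamer was present in 8.12% of the 32851 windows of the genome at the same length. CACNAG was found in Sox6 windows 2 and 3, against 36.7% of all windows, and neither TGGGAA (21.6% of windows) nor the NF-κB consensus (7.25%) was found in any Sox5 or Sox6 window. The matches describe letters in these windows only.

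Sox9, the activator of the trio, was the most abundant of the 3 per length of transcript and varied the most between the groups. In control cells exposed to vehicle its level was 213, 217, 223 and 199.9 CPM in replicates 1 to 4, and in Notch2tm1.1Ecan cells exposed to vehicle it was 156, 153.9, 155 and 169.8 CPM. With TNFα it was 64.0, 73.8, 64.0 and 109.8 CPM in control cells and 39.2, 40.7, 40.9 and 50.5 CPM in Notch2tm1.1Ecan cells. The 4 groups did not overlap, and control vehicle was the highest, followed by Notch2tm1.1Ecan vehicle, control TNFα and Notch2tm1.1Ecan TNFα. How many genes separate all 4 groups was not counted. By pairs and in the same direction, the treatments did not overlap for 20.2% of genes in control and 20.4% in Notch2tm1.1Ecan cells. The genotypes did not overlap for 7.57% of genes with vehicle and 7.97% with TNFα. Replicate 4 was the highest library in both TNFα groups. In control cells it was the library named above as standing apart, and in Notch2tm1.1Ecan cells it was the shallowest.

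Sox5, a SoxD partner, had the lowest counts of the trio. Its level in control vehicle libraries was 34.5, 35.0, 37.2 and 36.0 CPM and in Notch2tm1.1Ecan vehicle libraries 20.9, 25.1, 23.5 and 28.4 CPM. With TNFα it was 35.8, 26.9, 24.3 and 32.1 CPM in control cells and 19.6, 19.0, 21.6 and 15.5 CPM in Notch2tm1.1Ecan cells. The genotypes did not overlap under either treatment, as for 7.57% of genes with vehicle and 7.97% with TNFα in the same direction. Vehicle and TNFα overlapped within each genotype. The means were ordered control vehicle, control TNFα, Notch2tm1.1Ecan vehicle and Notch2tm1.1Ecan TNFα, and each neighbouring pair in that order overlapped.

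Sox6, the other SoxD partner, was 89.3, 88.9, 86.8 and 91.4 CPM in control vehicle libraries and 58.0, 68.4, 70.1 and 71.6 CPM in Notch2tm1.1Ecan vehicle libraries. With TNFα it was 63.0, 62.1, 59.4 and 80.6 CPM in control cells and 44.6, 45.6, 52.5 and 56.3 CPM in Notch2tm1.1Ecan cells. Control vehicle was the highest group and Notch2tm1.1Ecan TNFα the lowest, without overlap with their neighbours. The shares of all genes without overlap are those given for Sox9. The groups between them, Notch2tm1.1Ecan vehicle (67.0 ± 6.14 CPM, mean ± SD, n = 4) and control TNFα (66.3 ± 9.67 CPM), overlapped. As for Sox9, replicate 4 was the highest of the control TNFα libraries.

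**Figure D1:**
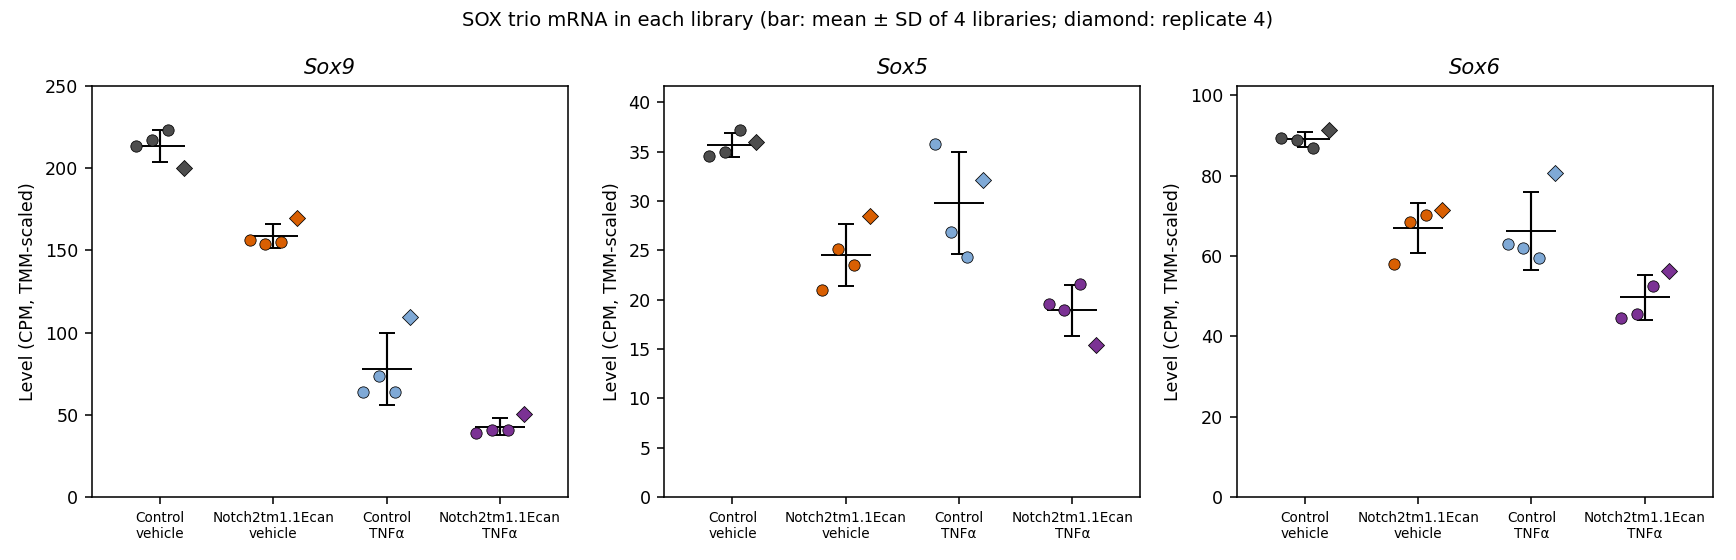
Levels of Sox9, Sox5 and Sox6 in CPM (linear axes from 0) in each of the 16 libraries, by genotype and treatment; points are libraries, diamonds are replicate 4, and bars are means ± SD of 4 libraries. Sox9 ranges from 223 CPM in a control vehicle library to 39.2 CPM in a Notch2tm1.1Ecan TNFα library, and replicate 4 of control TNFα, at 109.8 CPM, sits above the rest of its group.

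Between genes, levels can be compared only per length. In control vehicle cells Sox9 had 51.1 ± 2.36 CPM per kb of canonical transcript, Sox6 10.4 ± 0.22 and Sox5 4.46 ± 0.15 (SD, n = 4). In Notch2tm1.1Ecan cells with TNFα these values were 10.3 ± 1.24, 5.81 ± 0.66 and 2.36 ± 0.32. Sox9 thus remained above Sox6, and Sox6 above Sox5, in the group where Sox9 was lowest. With merged exons as the length, Sox6 and Sox5 had 3.07 and 1.22 CPM per kb in that group.

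The effect of TNFα was examined in each genotype. In control cells all 3 genes were lower with TNFα, where 44.2% of the 19338 genes tested were called and 20.9% were called lower. Sox9 fell 2.72-fold (95% interval 1.98 to 3.74), a log2 change of -1.44 (SE 0.19, adjusted p = 0.000937, edgeR). The vehicle and TNFα libraries did not overlap, as for 20.2% of all genes in that direction. Without replicate 4 of control TNFα the log2 change was -1.67, and without replicate 4 of both groups it was -1.69.

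Sox6 fell by 0.42 on the log2 scale in control cells (SE 0.08, adjusted p = 0.000741), to 74.8% of the vehicle level. Its vehicle and TNFα libraries did not overlap, as was the case, in the same direction, for 20.2% of all genes. Without replicate 4 of both groups it fell by 0.52.

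Sox5 fell by 0.26 in control cells (SE 0.10, adjusted p = 0.0467), and the call depended on single libraries. Leaving out control vehicle replicate 1, 2, 3 or 4 gave adjusted p of 0.0621, 0.0816, 0.109 and 0.0772. Leaving out control TNFα replicate 2 or 3 gave 0.155 and 0.126, with a change of -0.17 in the latter case. Without replicate 4 of both groups the adjusted p was 0.0625, and with scaling to total counts it was 0.0663.

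In Notch2tm1.1Ecan cells TNFα lowered all 3 genes, where 44.5% of 19633 genes were called and 21.9% were called lower. Sox9 fell 3.79-fold (95% interval 3.42 to 4.21), a log2 change of -1.92 (SE 0.07, adjusted p = 3.30e-18). Sox6 fell by 0.46 (SE 0.08, adjusted p = 3.58e-05), and neither gene overlapped between treatments, a property shared in that direction by 20.4% of genes. Without Notch2tm1.1Ecan TNFα replicate 4, which stood apart, the changes of Sox9, Sox6 and Sox5 were -1.98, -0.50 and -0.30, and all 3 were called.

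Sox5 fell by 0.34 in Notch2tm1.1Ecan cells (SE 0.10, adjusted p = 0.00605), with overlapping libraries. Without Notch2tm1.1Ecan vehicle replicate 4, the deepest library, the change was -0.26 and the adjusted p was 0.0548. Scaling to Rpl38, the reference transcript of the study's PCR, gave an adjusted p of 0.0616. Each library entered a TNFα and a genotype comparison, so these share samples. Chondrocyte markers also fell with TNFα, from summed levels of 40826 to 44797 CPM to 29215 to 34866 CPM in control cells. In Notch2tm1.1Ecan cells they fell from 25539 to 30011 CPM to 15151 to 17420 CPM. In each genotype 8 of 8 markers were called lower, where 20.9% of all genes were called lower in control and 21.9% in Notch2tm1.1Ecan cells. All 8 are also on the list of SOX target genes below, so they are not a separate measure of chondrocyte number. In these cultures, fewer chondrocytes and less RNA per chondrocyte cannot be told apart.

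The effect of the Notch2tm1.1Ecan allele was examined under each treatment. With vehicle all 3 genes were lower in Notch2tm1.1Ecan than in control cells, where 10.5% of 19432 genes were called and 4.35% were called lower. Sox9 was at 74.9% of the control level, a log2 difference of -0.42 (SE 0.05, adjusted p = 3.68e-06). Fitted with all 16 libraries, whose shared spread includes that of the TNFα groups, the difference was -0.42 with an adjusted p of 0.0894. Sox5 was at 69.5% (log2 difference -0.52, SE 0.08, adjusted p = 5.97e-05) and Sox6 at 75.7% of control (log2 difference -0.40, SE 0.06, adjusted p = 5.72e-05). None of the 3 overlapped between genotypes, as was the case, in the same direction, for 7.57% of genes.

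With TNFα all 3 genes were again lower in Notch2tm1.1Ecan cells, where 9.94% of 19227 genes were called and 4.31% were called lower. Sox5 was at 66.1% of control (log2 difference -0.60, SE 0.11, adjusted p = 0.000789). Sox6 was at 74.2% (log2 difference -0.43, SE 0.10, adjusted p = 0.0113), and the adjusted p was 0.0503 without Notch2tm1.1Ecan TNFα replicate 1. The genotypes did not overlap for any of the 3, against 7.97% of genes in that direction. Without Notch2tm1.1Ecan TNFα replicate 4 the differences of Sox5 and Sox6 were -0.56 and -0.48, and both were called.

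Sox9 with TNFα was at 53.9% of control (95% interval of the fold 1.30 to 2.65 lower), a log2 difference of -0.89 (SE 0.21), and its adjusted p of 0.0490 lay just inside the threshold. Replicate 4 of control TNFα widened the spread of its group to a coefficient of variation of 27.9%, and without it the difference was smaller but less variable, at -0.70 (SE 0.08, adjusted p = 4.53e-07). The call was lost without control TNFα replicate 2 (adjusted p = 0.0932) and without Notch2tm1.1Ecan TNFα replicate 1, 2, 3 or 4 (0.133, 0.121, 0.123 and 0.0708). It was also lost when genes with at least 1 count were tested (0.0724).

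Chondrocyte markers were also lower in Notch2tm1.1Ecan than in control cells, with 8 of 8 called lower under each treatment. Of all genes, 4.35% were called lower with vehicle and 4.31% with TNFα. The median log2 difference of these markers was -0.67 with vehicle (-0.86 to -0.60) and -0.99 with TNFα (-1.43 to -0.82). Markers of other cell types differed between the genotypes as well. Macrophage markers summed to 25.8 to 29.7 CPM in control and 55.7 to 65.4 CPM in Notch2tm1.1Ecan cells with vehicle, and to 33.3 to 36.6 and 80.8 to 89.6 CPM with TNFα. Of 8 such markers, 7 were called higher in Notch2tm1.1Ecan cells with vehicle and 8 with TNFα, where 6.19% and 5.63% of all genes were called higher, respectively. Fibroblast and perichondrium markers summed to 31529 to 34486 and 36002 to 38679 CPM with vehicle, and to 30878 to 33903 and 34563 to 42469 CPM with TNFα. Of 7 such markers, 4 were called higher with vehicle and 5 with TNFα, and 1, Dcn, which encodes decorin and is named here after its values were seen, was called lower (-0.36 and -0.24, adjusted p = 5.97e-06 and 0.00693). Of 5 endothelial markers, 3 were called higher in Notch2tm1.1Ecan cells under each treatment, with sums of at most 22.2 CPM. Of 8 skeletal muscle markers, 4 were called higher with vehicle and 0 were called with TNFα. Their sums with vehicle were 21.3 to 27.1 CPM in control and 34.4 to 41.5 CPM in Notch2tm1.1Ecan cells. With TNFα the sums were 8.63 to 18.7 and 17.0 to 41.9 CPM. The part of these cell types in the lower SOX levels was not tested.

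Whether the response to TNFα differed between the genotypes was examined by the interaction over the 16 libraries, in which 0.474% of 21321 genes were called. DESeq2 and edgeR called 0 of the 3, and 1 of the 3 had an unadjusted p below 0.05 with edgeR. The interaction was -0.47 for Sox9 (95% interval -0.92 to -0.02, unadjusted p = 0.0424, adjusted p = 0.544). It was -0.26 for Sox9 without replicate 4 of control TNFα (adjusted p = 0.356). For Sox5 it was -0.08 (95% interval -0.38 to 0.23, adjusted p = 0.931) and for Sox6 -0.03 (-0.28 to 0.22, adjusted p = 0.976).

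**Figure D2:**
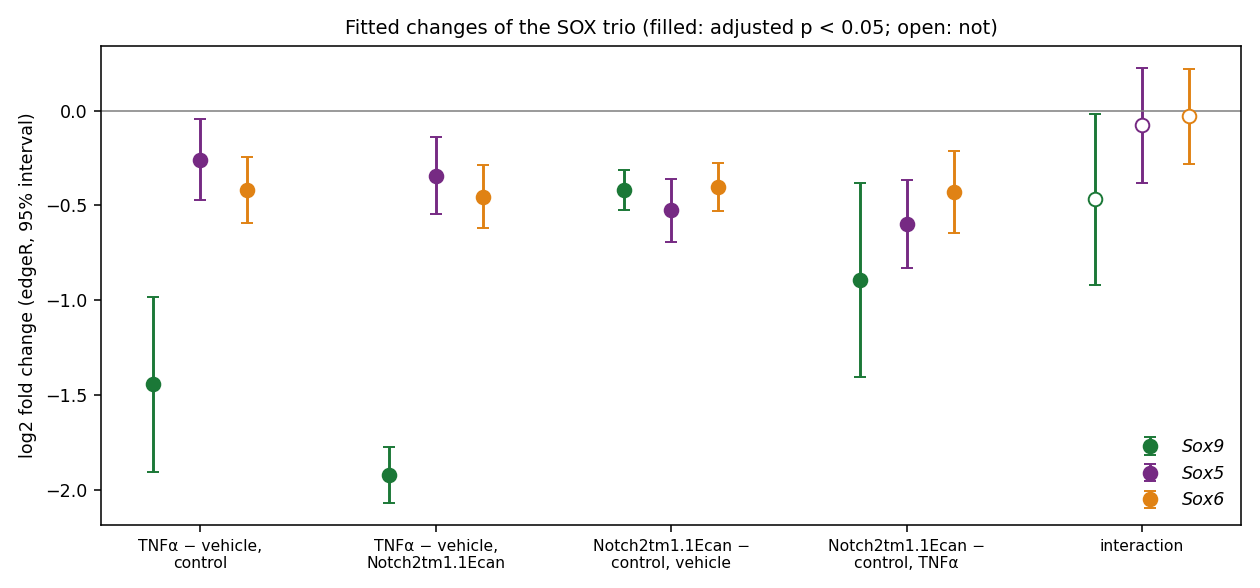
Fitted log2 fold changes of Sox9, Sox5 and Sox6 with 95% intervals in the 4 pairwise comparisons and the interaction; filled points have an adjusted p below 0.05. All 12 pairwise changes lie below 0, the changes of Sox9 with TNFα (-1.44 and -1.92) lie below those of Sox5 and Sox6, and the 3 interactions are open.

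Because the 3 counts were taken from the same library, their ratios do not depend on the scaling between libraries. The mean count of Sox6 relative to Sox9 was 0.42 ± 0.03 (SD, n = 4) in control and 0.42 ± 0.04 in Notch2tm1.1Ecan cells with vehicle. It was 0.87 ± 0.11 and 1.16 ± 0.08, respectively, with TNFα. The ratio was above 1 in the 4 Notch2tm1.1Ecan TNFα libraries (1.11 to 1.28) and below 1 in the other 12 libraries, the highest of which was 0.99. Counts were not corrected for length here, so a ratio of 1 does not mark equal levels. Per length, Sox9 stayed above Sox6 in that group, as given above. Sox5 relative to Sox9 was 0.17 ± 0.01 and 0.15 ± 0.01 with vehicle and 0.40 ± 0.11 and 0.45 ± 0.10 with TNFα.

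The log2 ratio of Sox5 to Sox9 rose with TNFα by 1.21 in control and 1.52 in Notch2tm1.1Ecan cells, and that of Sox6 to Sox9 by 1.05 and 1.46. In each case the libraries did not overlap, with p = 0.0286 in a two-sided exact permutation test, the smallest that 4 libraries against 4 allow. With TNFα the log2 ratio of Sox6 to Sox9 was also 0.42 higher in Notch2tm1.1Ecan than in control cells (exact permutation p = 0.0286). Adjusted over the 12 ratio tests, the 5 lowest p-values each became 0.0686, and none passed 0.05. With vehicle, the same ratio differed between genotypes by 0.01 (exact permutation p = 0.886).

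The ratio of the SoxD genes to each other moved less. The log2 ratio of Sox6 to Sox5 was 1.32 ± 0.07 and 1.45 ± 0.10 with vehicle and 1.16 ± 0.23 and 1.39 ± 0.31 with TNFα, in control and Notch2tm1.1Ecan cells, respectively. The exact permutation p of its 4 comparisons ranged from 0.114 to 0.771.

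**Figure D3:**
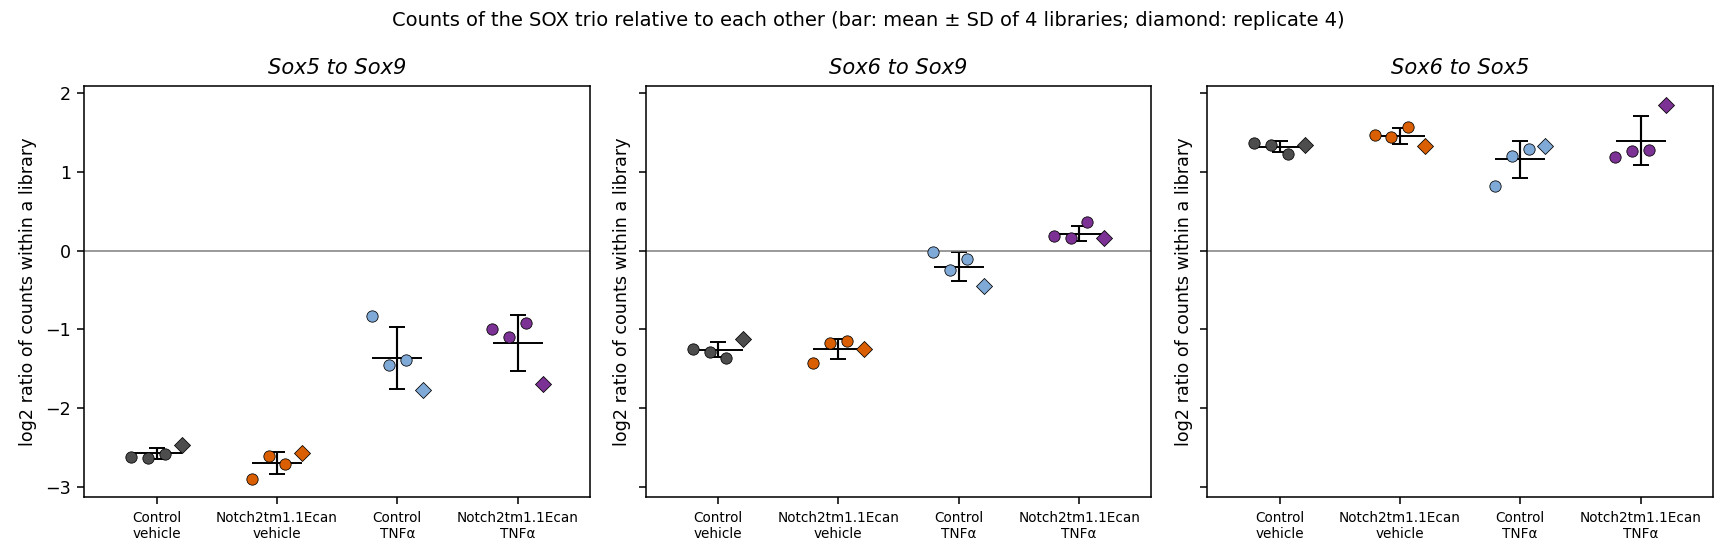
Log2 ratio of counts within each library for Sox5 to Sox9, Sox6 to Sox9 and Sox6 to Sox5, by genotype and treatment; points are libraries, diamonds are replicate 4, and bars are means ± SD of 4 libraries. The ratios to Sox9 are higher in every TNFα library than in every vehicle library, and Sox6 to Sox9 lies above 0 only in the 4 Notch2tm1.1Ecan TNFα libraries. A value of 0 marks equal counts, without correction for length.

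Genes that the SOX trio is known to activate were described from a list of 18, all of which were tested. It includes all 8 chondrocyte markers above. In control cells TNFα lowered 14 of 18 and raised 0, where 20.9% of all genes were called lower, with a median log2 change of -0.47 against 0.04 over all genes. The changes furthest from 0 were those of Fgfr3, a receptor that restrains chondrocyte growth (-2.25, SE 0.30, adjusted p = 0.00103), and Acan, which encodes aggrecan (-1.33, SE 0.17, adjusted p = 0.000943). The smallest among the called genes were Col9a1, a chain of type IX collagen (-0.27, adjusted p = 4.13e-05), and Col11a2, a chain of type XI collagen (-0.20, adjusted p = 0.00055). Col9a2, Col9a3, Comp and Mia were not called.

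In Notch2tm1.1Ecan cells TNFα lowered 14 of 18 and raised 0, where 21.9% of all genes were called lower, with a median of -0.77 against 0.03. Fgfr3 fell by 2.92 (SE 0.08, adjusted p = 6.18e-22), from 227 to 269 CPM with vehicle to 31.2 to 37.0 CPM with TNFα. Matn3, a cartilage matrix adaptor, fell by 1.60 (SE 0.17, adjusted p = 6.40e-09). Cnmd, which encodes chondromodulin, fell by 0.59 (adjusted p = 9.88e-10) and Col11a2 by 0.43 (adjusted p = 0.000843). Col9a2, Col9a3, Comp and Mia were again not called.

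With vehicle, 17 of 18 target genes were lower in Notch2tm1.1Ecan than in control cells and 0 were higher, where 4.35% of all genes were called lower and 6.19% higher, with a median of -0.62 against 0.00 over all genes. The largest differences were those of Ucma, a secreted cartilage protein (-0.91, SE 0.07, adjusted p = 4.95e-09), and Cnmd (-0.86, SE 0.05, adjusted p = 8.67e-12). Fgfr3 (-0.44, adjusted p = 0.00153) and Matn3 (-0.41, adjusted p = 0.0108) were the least changed of the called genes. Mia was not called. None of the called differences reached 1 on the log2 scale.

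With TNFα, 16 of 18 were lower in Notch2tm1.1Ecan cells and 0 were higher, where 4.31% of all genes were called lower and 5.63% higher, with a median of -0.94 against -0.01 over all genes. Snorc, a cartilage proteoglycan, was lower by 1.43 (SE 0.23, adjusted p = 5.93e-05), at 0.99 to 1.72 CPM against 3.32 to 4.23 CPM, and Ucma by 1.25 (SE 0.09, adjusted p = 3.68e-11). Comp, a pentameric matrix protein, differed by -0.49 (adjusted p = 1.11e-06) and Wwp2, a ubiquitin ligase that hosts a SOX9-driven microRNA, by -0.33 (adjusted p = 0.00471). Fgfr3 (-1.11, adjusted p = 0.0904) was not called, though its libraries did not overlap, as for 7.97% of genes in that direction. They were at 31.2 to 37.0 CPM in Notch2tm1.1Ecan and 50.2 to 115.9 CPM in control cells, with a control median of 57.4 CPM. Mia, at most 0.55 CPM in these groups, was not called either. Col2a1, the main collagen of cartilage and a direct target of the trio, fell from 37603 CPM on average in control vehicle to 14714 CPM in Notch2tm1.1Ecan TNFα cells.

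In the interaction 1 of 18 target genes was called, where 0.474% of all genes were called. It was Matn1, which encodes a cartilage matrilin (-0.41, SE 0.09, adjusted p = 0.0305). The median over the list was -0.28 against -0.01 over all genes. The number of target genes called was 4 when genes with at least 1 count were tested and 0 with Rpl38 scaling. It was also 0 without any one of Notch2tm1.1Ecan vehicle replicate 4, control TNFα replicate 2 or 4, or Notch2tm1.1Ecan TNFα replicate 2 or 3.

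**Figure D4:**
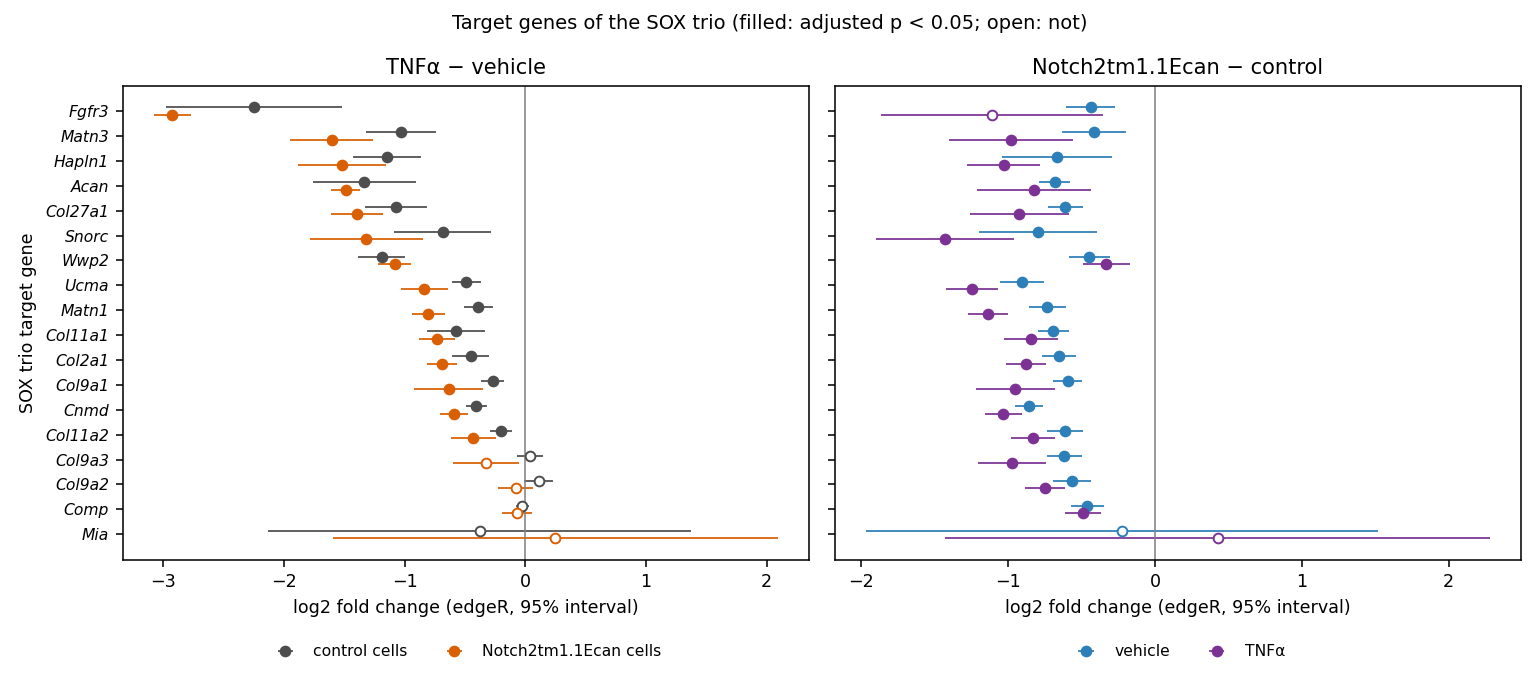
Log2 fold changes with 95% intervals of the 18 target genes of the SOX trio with TNFα (left, by genotype) and with the Notch2tm1.1Ecan allele (right, by treatment); filled points have an adjusted p below 0.05. Of the filled points none lies above 0, Fgfr3 has the lowest changes with TNFα (-2.25 and -2.92), and Mia has the widest intervals.

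A list of 15 partners and regulators of SOX9 held cofactors and transcription factors that act with it or oppose it. The list was not tested as a set. In control cells TNFα raised 5 and lowered 4 of them, and 6 were not called, where 23.3% of all genes were called higher and 20.9% lower. Zfp219, a zinc finger cofactor of SOX9, rose by 0.77 (SE 0.07, adjusted p = 1.01e-08) and Ppargc1a, a coactivator, by 0.77 (SE 0.16, adjusted p = 0.000328). Runx2, the factor that drives chondrocyte hypertrophy, fell by 1.21 (SE 0.13, adjusted p = 1.09e-05), and Nkx3-2, a repressor of Runx2, by 0.90 (SE 0.16, adjusted p = 7.18e-05).

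In Notch2tm1.1Ecan cells TNFα raised 6 and lowered 4, where 22.6% of all genes were called higher and 21.9% lower. Zfp219 rose by 0.88 (adjusted p = 7.99e-11) and Arid5a, an RNA-binding and SOX9-associated protein, by 0.76 (adjusted p = 3.52e-08). Runx2 fell by 1.86 (SE 0.10, adjusted p = 2.27e-14) and Nkx3-2 by 0.73 (adjusted p = 0.000138). Zfp219 went from 27.8 to 34.2 CPM with vehicle to 56.0 to 58.1 CPM with TNFα, and Runx2 from 40.3 to 43.9 CPM to 8.41 to 13.1 CPM.

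Between genotypes few of the partners differed. With vehicle 2 of 15 were higher in Notch2tm1.1Ecan cells, Runx2 by 0.47 (SE 0.07, adjusted p = 5.62e-05) and Arid5b, a chromatin cofactor of SOX9, by 0.43 (SE 0.06, adjusted p = 4.27e-05), and 0 were lower, where 6.19% of all genes were called higher. With TNFα only Arid5b was called (0.38, SE 0.09, adjusted p = 0.0064), where 5.63% of all genes were called higher. Its levels were 94.1 to 113 CPM in control vehicle and 124 to 149 CPM in Notch2tm1.1Ecan vehicle libraries. The median over the list was 0.02 with vehicle and 0.04 with TNFα.

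Of 16 other SOX genes, 7 had a mean of at least 1 CPM. Sox4, a SoxC gene, rose with TNFα by 0.44 in control (adjusted p = 3.10e-06) and 0.41 in Notch2tm1.1Ecan cells (adjusted p = 0.000182). Its level went from 151.7 to 176 CPM to 211 to 253 CPM in control cells and from 143.7 to 153.8 CPM to 157 to 226 CPM in Notch2tm1.1Ecan cells. Sox7, a SoxF gene, rose by 0.71 (adjusted p = 0.0204) and 1.27 (adjusted p = 2.27e-05), at levels of 1.16 to 4.50 CPM. Sox10, a SoxE gene, rose by 0.81 in control cells (adjusted p = 0.0484), at 0.53 to 2.21 CPM. Sox12 fell by 0.22 in control cells (adjusted p = 0.00808).

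Sox8, the remaining SoxE gene, was at 3.51 to 5.19 CPM over the 16 libraries and was not called, with log2 changes from -0.15 to -0.04 in the pairwise comparisons. Sox13, the remaining SoxD gene, was at 4.11 to 9.66 CPM and was not called. Its differences between genotypes were 0.21 with vehicle (95% interval -0.11 to 0.52, adjusted p = 0.493) and 0.11 with TNFα (-0.20 to 0.42, adjusted p = 0.753). Sox11, a SoxC gene, was not called either. Between genotypes with vehicle, 2 SOX genes below 1 CPM were called, both higher in Notch2tm1.1Ecan cells and both SoxF genes of endothelium, and they are named here after their values were seen. Sox18 had 3 to 11 counts in control and 13 to 62 in Notch2tm1.1Ecan libraries, and Sox17 had 0 in control and 1 to 15 in Notch2tm1.1Ecan libraries.

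Genes whose pattern was most like that of each member were ranked by the root mean square difference between log2 CPM profiles over the 16 libraries, each centred on its own mean, among 13414 genes. For Sox9 they were Chst11, a chondroitin sulfotransferase (0.12), Epha2 (0.13), Susd5 (0.15), Sh3rf2 (0.15) and Cd24a (0.16), against a median of 0.94 over all genes. For Sox5 they were Kcna6 (0.14), Aldh1a1 (0.16), Mmp16 (0.16), Slc41a2 (0.16) and Capn6 (0.17), against a median of 0.43. For Sox6 they were Adgrg6 (0.10), Papss2, which makes the sulfate donor for proteoglycans (0.11), Itga3 (0.11), Frzb, a secreted WNT antagonist (0.11), and Cpne8 (0.12), against a median of 0.39.

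By this measure the SoxD genes resembled each other more than they resembled Sox9. The difference between the profiles of Sox5 and Sox6 was 0.21, which ranked Sox6 at 55 among the genes nearest to Sox5 and Sox5 at 256 among those nearest to Sox6. The difference from Sox9 was 0.73 for Sox5 and 0.66 for Sox6, which ranked Sox9 at 11626 and 11296 of 13414. By this measure Sox9 was further from either SoxD gene than the median gene. Seen from Sox9, the same differences ranked Sox5 at 1719 and Sox6 at 966. Profiles were not scaled for the size of their changes, so genes that fell together by different amounts also lie apart. In control cells the log2 change with TNFα was -1.44 for Sox9, -0.26 for Sox5 and -0.42 for Sox6. Chst11, the nearest gene to Sox9, went from 118 CPM on average in control vehicle to 82.3 CPM in Notch2tm1.1Ecan vehicle, 40.2 CPM in control TNFα and 24.4 CPM in Notch2tm1.1Ecan TNFα cells. It was picked for its likeness to Sox9 in the same libraries, so the shared order of groups is no separate result. Adgrg6, the nearest to Sox6, was at 161, 121, 110.4 and 88.3 CPM in the same groups.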

How the data were processed

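RNA-Seq of 16 libraries was analysed from 1 table of whole-number counts per library, deposited by the authors with HTSeq categories that name no gene (8.81% to 12.1% of counts), which were left out. Per the labels, the submitters' processing notes name GRCm38, HISAT2 2.1.0, SAMtools 1.9, Picard, HTSeq and DESeq2, whereas the study's methods name GRCm39. Symbols and positions were taken by Ensembl identifier from GENCODE M39 (GRCm39), and 665 identifiers were not in it. Libraries were made from polyadenylated RNA with a stranded kit and sequenced in 1 pool.

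Genes with at least 10 counts summed over the compared libraries were tested with edgeR 4.0.16 (R 4.3.3; TMM factors, robust quasi-likelihood test, Benjamini-Hochberg adjustment) on the 8 libraries of each pairwise comparison or on all 16 for the interaction. The scripts were tested on simulated counts. Ratios used log2 of counts plus 0.5 and two-sided exact permutation tests. No 2 libraries agreed within sampling noise (lowest chi-square per degree of freedom 2.08). The labels call replicates biological without naming animals or cultures, so p-values measure the spread between these samples.

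The members and gene lists were chosen with earlier results of these data known. Named were the 3 members, the 2 highest and 2 lowest called changes of the target and partner lists per comparison, other SOX genes with a mean of at least 1 CPM, the 5 genes nearest to each member, overlapping genes and checks. Alternatives were DESeq2 1.42.0, RLE, total-count and Rpl38 scaling, other filters, a fold cutoff, a replicate block, a single fit of all libraries, another pseudocount and leaving out libraries.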

Additional observations from a re-analysis of the deposited data

Results flagged for a closer look

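Of 24 groups of 4 libraries examined for a single library far from the others, 4 held one, where chance gives about 1 group in 20. Sox9 in Notch2tm1.1Ecan vehicle replicate 4, the deepest library, was 169.8 CPM, against 153.9 to 156 CPM in the rest of its group. Sox9 in Notch2tm1.1Ecan TNFα replicate 4, the shallowest library, was 50.5 CPM (counting interval 43.4 to 58.4), against 39.2 to 40.9 CPM. The log2 ratio of Sox6 to Sox9 in Notch2tm1.1Ecan TNFα replicate 3 was 0.36, against 0.16 to 0.18 in the rest of its group. The log2 ratio of Sox6 to Sox5 in Notch2tm1.1Ecan TNFα replicate 4 was 1.86, against 1.18 to 1.28, and Sox5 had 56 counts in that library.

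Matn1, a target of the trio, responded differently to TNFα in the 2 genotypes, with an interaction of -0.41 (adjusted p = 0.0305, edgeR). It fell by 0.39 in control and by 0.81 in Notch2tm1.1Ecan cells, and the call was lost with Rpl38 scaling and without any of 5 single libraries.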

How the results depend on the processing

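The pairwise changes of the 3 genes kept their direction under every alternative run. With a cutoff of 1 on the log2 scale, Sox5 (-0.26, -0.34, -0.52 and -0.60) and Sox6 (-0.42, -0.46, -0.40 and -0.43) were called in none of the TNFα and genotype comparisons, and Sox9 in neither genotype comparison (-0.42 and -0.89). The target genes called then numbered 6, 7, 0 and 5. Sox5 with TNFα was not called in control cells with total-count scaling (-0.20), nor in Notch2tm1.1Ecan cells with Rpl38 scaling (-0.32). Sox9 was not called between genotypes with vehicle in 1 fit of all 16 libraries (-0.42), nor with TNFα when genes with at least 1 count were tested (-0.89). Counts of target genes called in the interaction were 0 with Rpl38 scaling and 4 with at least 1 count. The interaction of Sox6 was 0.0504 with Rpl38 scaling and 0.0624 without replicate 4 of control vehicle and control TNFα, and 0 target genes were called without these; Sox5 with TNFα in control cells was then -0.30. The causes were not tested.

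With single libraries left out, Sox5 with TNFα ranged from -0.355 to -0.17 in control and from -0.41 to -0.26 in Notch2tm1.1Ecan cells. Between genotypes with TNFα, Sox9 ranged from -0.99 to -0.70 and Sox6 from -0.49 to -0.34. The interaction ranged from -0.16 to 0.0151 for Sox5 and from -0.0925 to 0.0799 for Sox6, and its target genes from 0 to 1. The log2 ratio of Sox6 to Sox9 between genotypes with vehicle ranged from -0.0241 to 0.0712, and that of Sox6 to Sox5 with TNFα in Notch2tm1.1Ecan cells from -0.21 to 0.00974. The ratio fits of 3 libraries against 4 could not be tested at 0.05 after adjustment.

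Libraries with the same replicate number did not deviate together (correlations of -0.18 to 0.12, with 2 of 16 closest to their own number), so the numbers were not taken as pairs. A replicate block changed no call of the 3 genes, with an interaction of -0.42 for Sox9, and gave 14, 15, 16, 16 and 1 target genes called. Scaling moved the median of all genes by at most 0.1. Depth limits Sox5 most, with 56 counts in the shallowest library; counting intervals cover counting error only.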
